A study of Mus musculus with 12 samples.

Results

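The elastic fibre and microfibril genes examined here were Eln, Fbn1, Fbn2, Fbln1, Fbln2, Fbln5, Mfap4, Mfap5, Efemp1 and Efemp2. They were taken by symbol from a table of raw read counts, as 10 of its 55418 genes, and each was followed through 12 individually sequenced cells. The cells came from non-injured mouse Achilles tendons and carried ScxGFP, a transgenic reporter of Scx, the transcription factor that marks the tendon lineage. 6 cells were Tnmd-/- and 6 were wild type (WT), with C57BL/6 as the background named in the labels and C57BL/6J as the one named in the study's methods. Tnmd encodes tenomodulin, a transmembrane glycoprotein of tendon cells, and the deletion is constitutive. Because the gene is X-linked, the study's WT animals were not of 1 genotype: males with a single intact copy were grouped with females carrying either 1 or 2. Animal age for these cells is not given in the sources used here. All cells were freed by collagenase digestion over 8 h, picked by micromanipulator for their green fluorescence, and amplified from full-length cDNA by Smart-Seq2, which carries no molecular identifiers. Achilles tendons of both genotypes were explanted (n = 2, without a statement whether per genotype), and no label ties a cell to a tendon or an animal. Each genotype was therefore treated as 1 sample, without a test between genotypes. The intervals given are exact 95% intervals that cover counting error of reads only. Without molecular identifiers, reads copied from the same molecule could not be told apart, so the sampling of molecules is not covered.

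Elastic fibres give a tissue the ability to recoil after stretch. They consist of a core of crosslinked elastin laid down on a scaffold of fibrillin microfibrils, and fibulins and microfibril-associated proteins help to bring elastin, the microfibrils and the crosslinking enzymes together. In tendon, which is dominated by type I collagen, elastic fibres are a minor component found around cells and between fascicles, and fibrillin microfibrils also hold latent transforming growth factor beta in the matrix.

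Libraries of Tnmd-/- cells held 892713 to 10333351 counts and those of WT cells 4516036 to 13613080. By read depth alone, a gene at 0 in all 12 cells could therefore lie at up to 0.0339 CPM, that is, counts scaled to a total of 1000000, in their sum. The study graded each library by RNA degradation in the annotation of a heat map, from which the levels were read by eye, 3 Tnmd-/- and 3 WT cells falling into either level, and the less degraded cells were also the deeper ones (6742665 to 13613080 against 892713 to 5991316 counts). Tnmd-/- cell 3 stood apart with 51.8% of its counts in mitochondrial genes, where the other 11 cells had 1.75 to 7.30%. Tnmd itself summed to 8 Tnmd-/- and 10185 WT counts, of which WT cell 14 held 10178, so the remaining WT cells could not be told from Tnmd-/- cells by this gene. Scx reached 10 counts in 3 WT cells (174, 1355 and 544 counts) and in no Tnmd-/- cell, although ScxGFP fluorescence was the selection marker for both genotypes.

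Counting a gene as seen in a cell at 10 or more counts, 21 of the 120 combinations of gene and cell were seen, 9 from Tnmd-/- and 12 from WT cells. A further 21 combinations held 1 to 9 counts, none above 7, and 78 were at 0. Each cell held 1 to 3 of the 10 genes, with a median of 1.5. In 7 of the 10 genes at least 1 cell passed 10 counts (4 genes among Tnmd-/- and 6 among WT cells), while Fbn2, Fbln5 and Efemp1 had no count in any cell. The 7 genes were seen in a median of 2 cells, which was also the median over the 10123 genes seen in at least 1 cell, 42.0% of which were seen in 1 cell. When every cell was thinned to 892713 counts, the depth of the shallowest, 8 Tnmd-/- and 10 WT combinations were still seen.

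**Figure D1:**
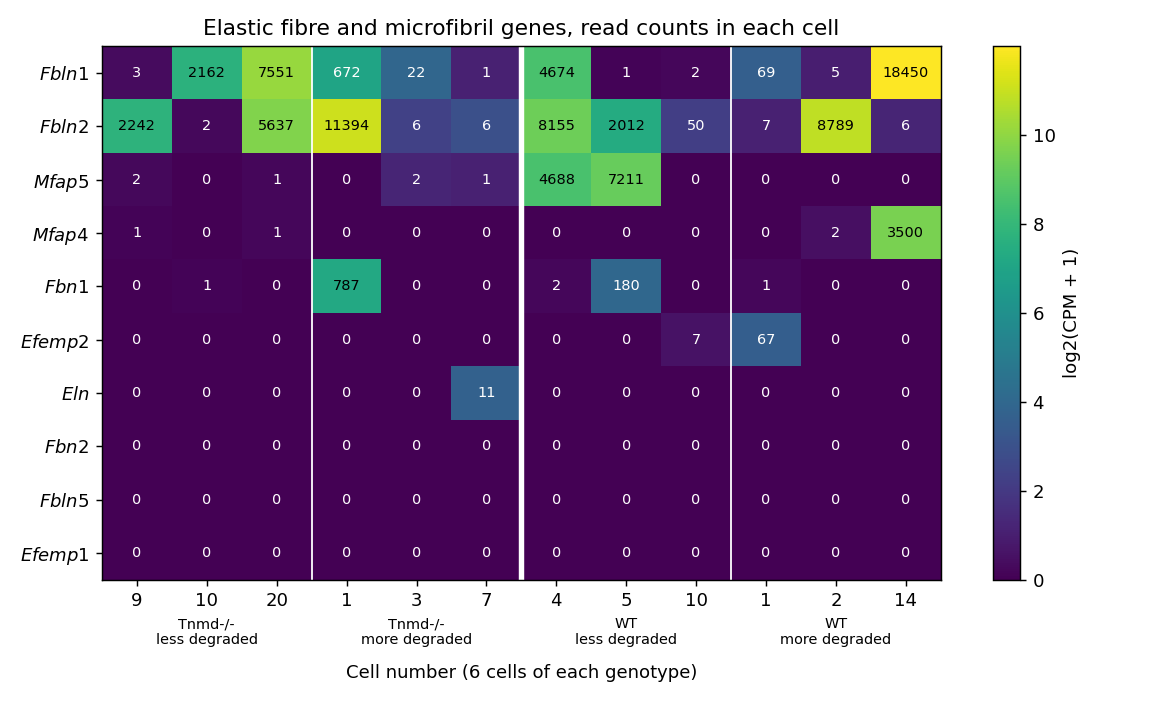
CPM of each elastic fibre and microfibril gene (rows) in each of the 12 cells (columns, grouped by genotype). Colour shows log2 of CPM plus 1, and the raw count is printed in each tile. Fbln1 and Fbln2 have counts in all 12 cells, whereas Mfap4 is high in WT cell 14 alone, Mfap5 in WT cells 4 and 5 alone, and Fbn2, Fbln5 and Efemp1 are empty.

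The fibulins Fbln1 and Fbln2 were the most abundant members. Fbln1 encodes fibulin-1, a calcium-binding glycoprotein of the elastin core and of basement membranes, and Fbln2 encodes fibulin-2, which binds fibrillin and lies at the border between elastin and microfibrils. By summed counts over the 12 cells they ranked 359 and 313 among all genes. Fbln1 (ENSMUSG00000006369, GRCm38 chromosome 15, 85205949 to 85286535) ranged in the Tnmd-/- cells from 0.290 CPM over a median of 70.6 to 1119.9 CPM. In the WT cells it ranged from 0.0832 CPM over a median of 6.28 to 4085 CPM. The ranges overlapped almost entirely: high cells were Tnmd-/- cell 20 (7551 counts), Tnmd-/- cell 10 (2162 counts), WT cell 4 (4674 counts) and WT cell 14 (18450 counts), and low cells with 1 to 5 counts occurred in both genotypes.

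Fbln2 (ENSMUSG00000064080, chromosome 6, 91212455 to 91272540) ranged from 0.194 CPM over a median of 112 to 2146 CPM in the Tnmd-/- cells. In the WT cells it ranged from 1.17 CPM over a median of 85.5 to 1821 CPM. It reached 2012 or more counts in 3 cells of each genotype, namely Tnmd-/- cells 1, 9 and 20 (11394, 2242 and 5637 counts) and WT cells 2, 4 and 5 (8789, 8155 and 2012 counts). Outside these 6 cells it reached 50 counts in WT cell 10 and at most 7 counts elsewhere, so that the counts fell into high and low cells, with 3 high cells on either side. Whether low counts stand for low expression in the cell was not tested.

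Both genes had at least 1 count in all 12 cells, which held for 771 genes of the table, but in 5 cells each this amounted to 1 to 9 counts. The cells high for one fibulin were in part those high for the other. At 10 or more counts, 3 cells held both fibulins, 4 held Fbln1 alone, 4 held Fbln2 alone and 1, Tnmd-/- cell 7, held neither. At 100 or more counts the joint cells were again 3 (Tnmd-/- cells 1 and 20 and WT cell 4), with 2 for Fbln1 alone, 3 for Fbln2 alone and 4 for neither. Spearman's rho between them over the 12 cells, which share no library but differ in depth, was −0.042.

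**Figure D2:**
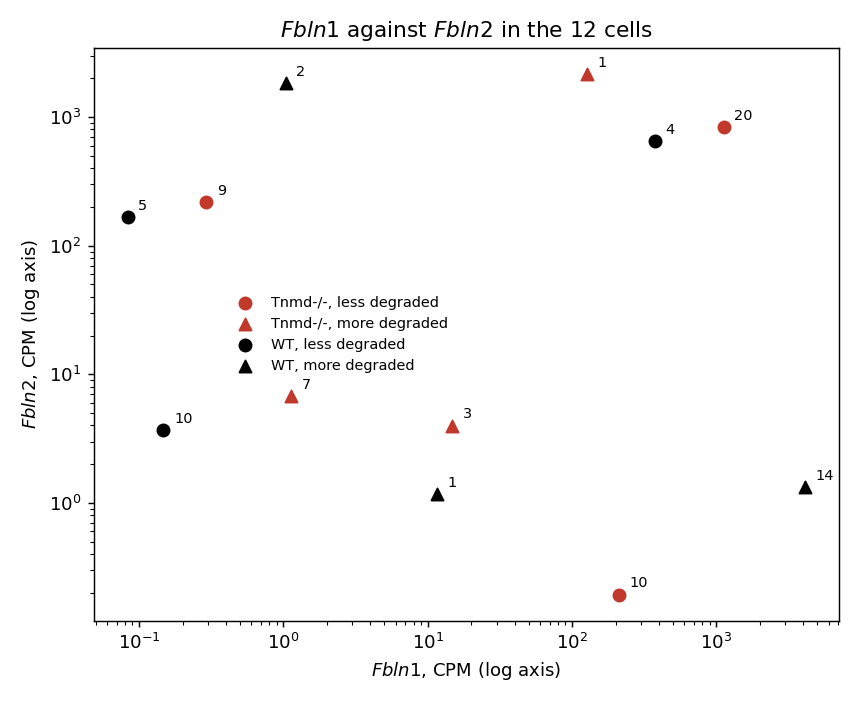
Fbln2 against Fbln1 in CPM on log axes, with 1 point per cell, coloured by genotype. Tnmd-/- cells 1 and 20 and WT cell 4 are high for both fibulins, while WT cell 14 lies high for Fbln1 alone and WT cell 2 high for Fbln2 alone.

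The microfibril genes were found in fewer cells. Fbn1 (ENSMUSG00000027204, chromosome 2, 125300594 to 125507993) encodes fibrillin-1, the main structural protein of microfibrils. It was seen in 1 cell of each genotype, with 787 counts (148 CPM) in Tnmd-/- cell 1 and 180 counts (15.0 CPM) in WT cell 5. The other 10 cells held 0 to 2 counts, including Tnmd-/- cells 9 and 10, the deepest libraries of that genotype. Of its exon bases 20.1% are shared with Gm9913 on the opposite strand, and since the strand setting of the counting is not given in the sources used here, reads from the shared stretch could belong to either gene. Fbn2 (ENSMUSG00000024598), which encodes fibrillin-2, the fibrillin best known from developing tissue, was at 0 throughout.

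Mfap5 (ENSMUSG00000030116, chromosome 6, 122505845 to 122529290) encodes a small glycoprotein, MAGP-2, that binds fibrillin along the microfibril. It held 4688 counts (376 CPM) in WT cell 4 and 7211 counts (599.9 CPM) in WT cell 5. The other 4 WT cells were at 0 and the Tnmd-/- cells held 0 to 2 counts each, so the WT cells themselves split into 2 high and 4 empty cells. Mfap4 (ENSMUSG00000042436, chromosome 11, 61485431 to 61488900) encodes a fibrinogen-related protein that binds elastin and fibrillin. It was at 3500 counts (775 CPM) in WT cell 14 and at 0 to 2 counts in every other cell. WT cell 14 was also the cell with the highest Fbln1 and the cell that held nearly all Tnmd counts. The 2 cells with Fbn1 and the 2 cells with Mfap5, which share WT cell 5, were all among the 6 cells with 2012 or more Fbln2 counts.

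Counts for Eln and for the fibulin genes Efemp2, Fbln5 and Efemp1 were few or absent. Eln (ENSMUSG00000029675, chromosome 5, 134702593 to 134747323) encodes tropoelastin, the soluble precursor that is crosslinked into elastin. Its 11 counts (12.3 CPM) all lay in Tnmd-/- cell 7, the shallowest library, and the other 11 cells were at 0. Efemp2 (ENSMUSG00000024909, chromosome 19, 5473954 to 5482517) encodes fibulin-4, which brings the crosslinking enzyme lysyl oxidase to tropoelastin. It held 67 counts (11.2 CPM) in WT cell 1, 7 counts in WT cell 10 and 0 elsewhere. Of the exon bases, 3.30% in Eln, 4.57% in Efemp2 and 4.63% in Mfap4 are shared with a gene on the opposite strand. Fbln5 (ENSMUSG00000021186), which encodes fibulin-5, a cell-adhesive fibulin needed for elastic fibre assembly, and Efemp1 (ENSMUSG00000020467), which encodes fibulin-3, were at 0 in all 12 cells. For these 2 genes and Fbn2, a level below 0.0339 CPM over the pooled cells was not detectable at this depth. That limit covers read depth only, and transcripts lost before sequencing were not measured.

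Per kilobase of exon, the pooled levels over all 12 cells ran in the order Fbln1 (86.9 CPM per kb), Fbln2 (67.9), Mfap5 (37.5), Mfap4 (20.6), Fbn1 (0.904), Efemp2 (0.221) and Eln (0.0153). Within the Tnmd-/- cells Fbln2 led with 86.3 CPM per kb before Fbln1 with 67.9, and the third gene, Fbn1, stood at 1.85. Within the WT cells the order was Fbln1 (99.4 CPM per kb), Mfap5 (62.0), Fbln2 (55.9) and Mfap4 (34.1), ahead of Efemp2 (0.366) and Fbn1 (0.282). Fbln1 and Fbln2 overlapped in their ranges over cells in both genotypes, and their places also leaned on single cells. WT cell 14 held 79.5% of the WT counts of Fbln1, and Tnmd-/- cell 1 held 59.1% of the Tnmd-/- counts of Fbln2. The places of Mfap5, Mfap4, Fbn1, Efemp2 and Eln each rested on 1 or 2 cells.

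Pooled over cells, the 10 genes together reached 869 CPM (859.6 to 879) for Tnmd-/- and 1083 CPM (1074 to 1092) for WT. By cell, the sum lay between 19.9 and 2420.3 CPM for Tnmd-/- with a median of 214, and between 4.33 and 4862 CPM for WT with a median of 1093. The highest sums were those of WT cell 14, Tnmd-/- cell 1 and Tnmd-/- cell 20, and the lowest were those of WT cell 10, Tnmd-/- cell 3 and Tnmd-/- cell 7. The deepest library was that of WT cell 10 (13613080 counts), so low sums occurred at either end of the depth range. Fbln1 and Fbln2 supplied 97.4% of the family's counts from Tnmd-/- and 72.9% of those from WT cells, where Mfap4 and Mfap5 made up nearly all of the remainder.

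**Figure D3:**
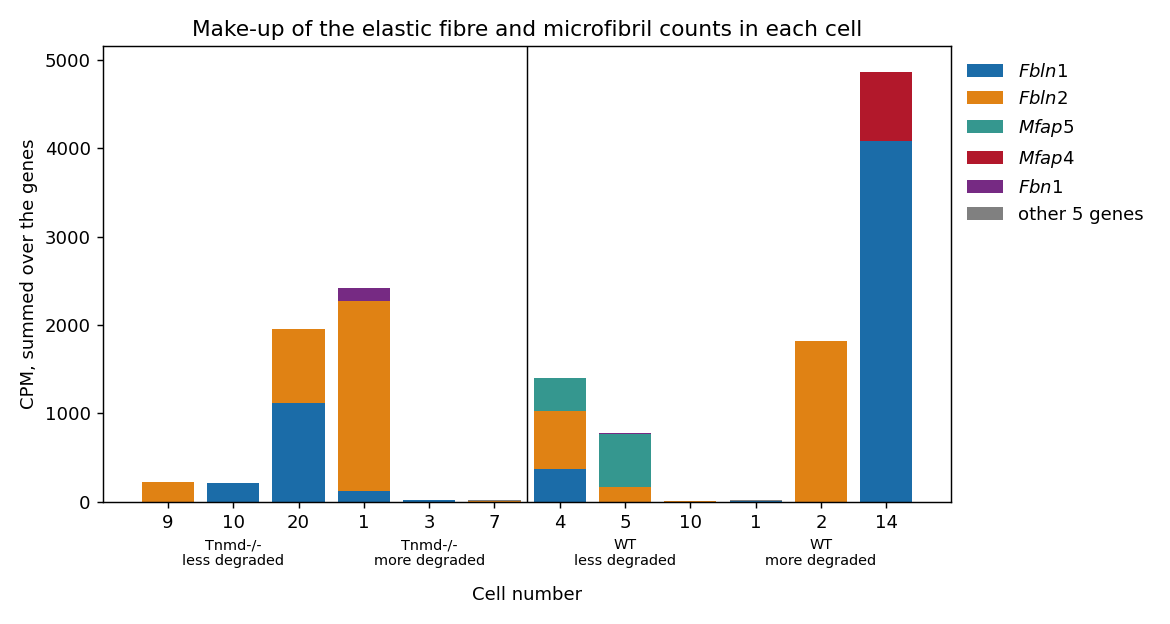
Summed CPM of the elastic fibre and microfibril genes in each cell on a linear axis from 0, stacked by gene. The bars range from 4.33 CPM in WT cell 10 to 4862 CPM in WT cell 14, and the mixture differs from cell to cell, with Mfap4 visible only in WT cell 14 and Mfap5 only in WT cells 4 and 5.

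To compare the genotypes, counts were summed over the 6 cells of each and expressed as CPM of the summed total. A sum of 0 was set to 3 counts, and limits formed in this way leave out the counting error of the other sum. Fbn1 (log2 ratio of Tnmd-/- over WT 2.71, interval 2.48 to 2.95) and Eln (11 against 0 counts, 5.58-fold with the 0 set to 3 counts) lay at least 2-fold higher in the Tnmd-/- sum. Mfap4 (−10.17, −13.21 to −8.31; 2 against 3502 counts), Mfap5 (−10.35, −11.79 to −9.22; 6 against 11899 counts) and Efemp2 (0 against 74 counts, a log2 ratio of −4.02 or lower) lay at least 2-fold lower. Fbln1 (−0.55, −0.58 to −0.52) and Fbln2 (0.63, 0.60 to 0.66) lay within 2-fold. Fbln1 passed 2-fold lower with equal weights for cells (−1.60), TMM scaling (−2.01) or DESeq2 size factors (−3.15), but was at 0.79 by the difference of mean log2 values, and Fbln2 turned to −0.094 with TMM scaling and −0.21 with DESeq2 size factors. Of the 7 members with a ratio, 2 were past 2-fold higher and 3 past 2-fold lower, and of the 6 with at least 20 counts, which leaves out Eln, 1 and 3. By comparison, 39.7% and 38.3% of the 9768 genes that had 20 or more counts in all 12 cells together passed the same limits. The members were thus not set apart from the table by how many passed 2-fold. The genotypes' CPM values were fully separated for 0 of the 6 members with at least 20 counts and for 0.041% of the 9768 genes.

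These ratios rested on individual cells. For Fbln1, WT cell 14 held 79.5% of the WT and Tnmd-/- cell 20 held 72.5% of the Tnmd-/- counts, and the log2 ratio became 1.61 without the former and −2.11 without the latter. For Fbln2 the ratio turned to −0.43 without Tnmd-/- cell 1, which held 59.1% of the Tnmd-/- counts, and became 1.39 without WT cell 2. Fbn1 turned from 2.71 to −6.67 without Tnmd-/- cell 1 and became 8.28 without WT cell 5. Without WT cell 14, Mfap4 would have had 2 counts in either genotype. Mfap4 also stood at −10.86 without Tnmd-/- cell 20, and Mfap5 at −9.37 without WT cell 5. Without WT cell 1, the bound for Efemp2 shrank to −0.79, and without Tnmd-/- cell 7 no Eln count was left. Such concentration was common in these libraries: over the 9768 genes the median gene had 79.6% of its counts in 1 cell. The corresponding share was 54.9% for Fbln1 and 29.7% for Fbln2, but 60.6% for Mfap5, 81.1% for Fbn1, 90.5% for Efemp2, 99.9% for Mfap4 and 100% for Eln.

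Within the levels of RNA degradation, Fbln1 and Fbn1 went opposite ways. Among the less degraded cells Fbln1 had 9716 Tnmd-/- and 4677 WT counts (log2 ratio 1.53, 1.48 to 1.58), and among the more degraded cells it had 695 and 18524 counts (−3.74, −3.86 to −3.63). Fbn1 had 1 and 182 counts in the less degraded cells (−7.03, −12.34 to −4.53) and 787 and 1 counts in the more degraded cells (10.61, 8.13 to 15.92). Single cells held most of these counts. For Fbln1 they were Tnmd-/- cell 20 (7551) and WT cell 4 (4674) among the less degraded cells. Among the more degraded cells they were Tnmd-/- cell 1 (672) and WT cell 14 (18450). For Fbn1, WT cell 5 held 180 of the 182 counts and Tnmd-/- cell 1 all 787. Fbln2 was at 0.10 (0.06 to 0.14) in the less and 1.37 (1.33 to 1.41) in the more degraded cells. All 11899 WT counts of Mfap5 lay in less degraded and all 3502 of Mfap4 in more degraded cells, so that neither could be compared in both levels. At least 2-fold higher were 1 of 5 members with a ratio in the less degraded cells (37.4% of all genes) and 3 of 6 in the more degraded cells (47.1%). At least 2-fold lower were 2 of 5 (40.3%) and 3 of 6 (38.4%). The part of degradation and depth in these differences was not tested.

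**Figure D4:**
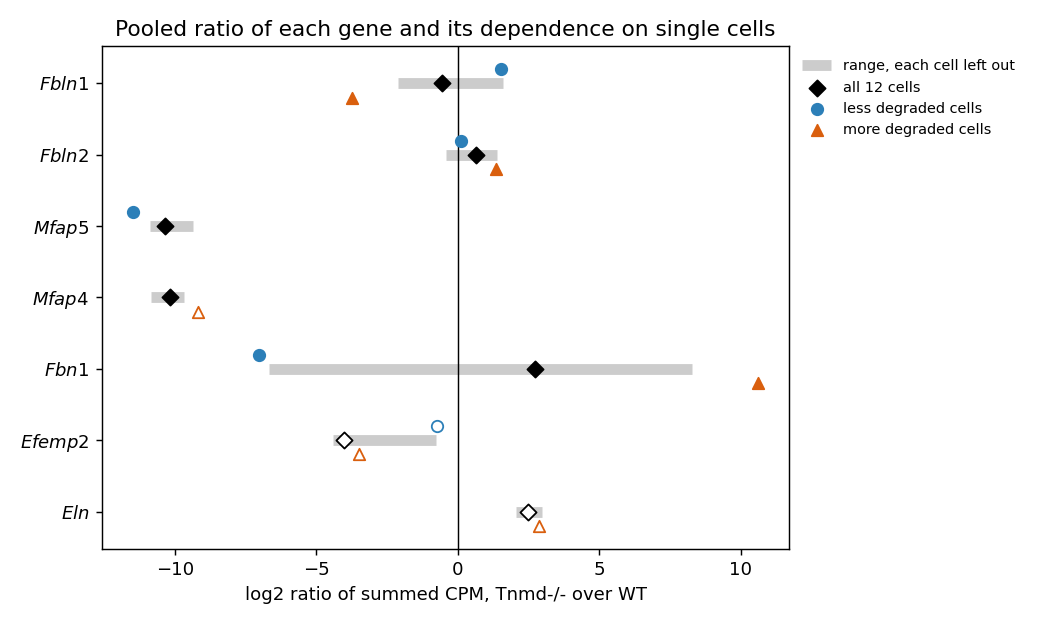
Log2 ratio of the pooled CPM, Tnmd-/- over WT, for each member with a ratio, from all 12 cells (diamonds), the less degraded cells (circles) and the more degraded cells (triangles). Open symbols are bounds against 3 counts, and grey bars span the values obtained when each cell was left out in turn. The bars of Fbln1, Fbln2 and Fbn1 cross 0, and Fbn1 lies at −7.03 in the less and 10.61 in the more degraded cells.

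Over the 6 members with at least 20 counts, the median log2 ratio with 1 CPM added to both sums was −0.90, beside 0.062 over all 9768 genes. This median depended on WT cell 14, without which it was 0.26, and it was also displaced without Tnmd-/- cell 1 (−1.68) and without Tnmd-/- cell 20 (−1.67). In either level of degradation the median over all genes was 0, with genes without counts in that level entering at 0. That of the members was −0.071 in the less and −0.98 in the more degraded cells. Taking the gene with 0 Tnmd-/- counts at its bound, with no CPM added, gave −2.28. The log2 ratio of the summed family was −0.32 (−0.34 to −0.30), but its direction turned without WT cell 14 (0.24), Tnmd-/- cell 9 (0.076) or Tnmd-/- cell 10 (0.078), and without Tnmd-/- cell 1 or cell 20 it was −0.87 or −0.83.

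The wider machinery of elastic fibres was followed in 76 further genes, of which 73 were in the table, 41 were seen in at least 1 cell and 27 were at 0 in all 12. Detection differed between roles. The crosslinking enzyme Lox, which oxidizes lysines of tropoelastin and collagen, was seen in all 12 cells, as were the endoplasmic reticulum chaperones Calr and Hspa5, the matrix proteins Fn1, Bgn and Dcn, the cysteine protease Ctsl and the metalloprotease inhibitor Timp3. Of its relatives, Loxl2 was seen in 5 cells (246 Tnmd-/- and 973 WT counts, log2 ratio −1.38) and Loxl4 in 1 cell (1427 and 7 counts, 8.28, with 99.5% of all counts in Tnmd-/- cell 9). Loxl1 and Loxl3 had no count, and neither had Mfap2, which encodes the microfibril protein MAGP-1, or Fbln7. Fibulins and hemicentins outside the 10 members contributed no gene with 20 counts. Lox summed to 14007 Tnmd-/- and 59415 WT counts, a log2 ratio of −1.48 (−1.50 to −1.45), with −1.13 in the less and −4.46 in the more degraded cells, and was picked out here after its values were seen.

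Of the 40 related genes with at least 20 counts, 11 lay at least 2-fold higher and 20 at least 2-fold lower in the Tnmd-/- sum, against the 39.7% and 38.3% of all genes given above. Their median log2 ratio was −0.91, with −0.43 in the less and −0.55 in the more degraded cells. By role, the microfibril-associated and fibrillin-like genes had 2 higher and 6 lower of 8 (2 and 4 of 6 without Mfap1a and Mfap1b), the profibrillin-processing genes 3 and 2 of 7, the ADAMTS and ADAMTS-like genes 3 and 1 of 4, the crosslinking genes 1 and 2 of 3, the matrix partners 1 and 1 of 5, the receptors 1 and 5 of 7, and the elastases and their inhibitors 0 and 3 of 6. In the less degraded cells 10 were higher and 19 lower of 38 (37.4% and 40.3% of all genes), and in the more degraded cells 8 and 19 of 33 (47.1% and 38.4%).

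Among the related genes seen in at least 2 cells, the largest ratios toward Tnmd-/- were those of Fkbp10, a chaperone of procollagen in the endoplasmic reticulum (3059 against 4 counts, log2 ratio 10.19, 8.83 to 12.06), and of the integrin subunit Itgb8 (88 against 0 counts, a log2 ratio of 5.48 or higher). Without Tnmd-/- cell 10 Fkbp10 was at 9.06, without WT cell 4 it was at 10.80, and without Tnmd-/- cell 3, the cell rich in mitochondrial counts, the bound for Itgb8 was 3.84. Ltbp4, a latent transforming growth factor beta binding protein that also guides elastin assembly, had 4975 against 877 counts (3.11, 3.01 to 3.22), was seen in 4 Tnmd-/- and 2 WT cells, and kept its direction in the less (2.82) and more (5.52) degraded cells. It was at 2.27 without Tnmd-/- cell 20 and at 7.48 without WT cell 5. Pcsk5, a proprotein convertase, had 2499 against 662 counts (2.52), but it was at −7.89 in the less and 11.28 in the more degraded cells, at −7.53 without Tnmd-/- cell 1 and at 10.47 without WT cell 10.

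The largest ratios toward WT were those of Mfap1b, Ctsa, Itgb5 and Mmp2. Mfap1b had 2 against 5170 counts (−10.73, −13.78 to −8.88) and was seen in 4 WT cells, with −9.09 without WT cell 2 and a bound of −9.64 without Tnmd-/- cell 9. It carries a microfibril symbol, but its product is known as a splicing factor, and reads can be split between it and the near-identical Mfap1a, so its value is uncertain. Ctsa, the lysosomal protective protein of the elastin receptor complex, had 18 against 12466 counts (−8.83) with −10.54 in the less degraded cells, but 12 against 0 counts in the more degraded cells, a log2 ratio of 2.99 or higher, and −7.77 without WT cell 5. The integrin subunit Itgb5 had 9 against 5919 counts (−8.75), with −6.00 without WT cell 5, which held 88.5% of its WT counts, and −10.03 without Tnmd-/- cell 20. The gelatinase Mmp2 had 0 against 320 counts, a log2 ratio of −6.13 or lower, but WT cell 4 held 95.9% of them and the bound without it was −1.89.

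**Figure D5:**
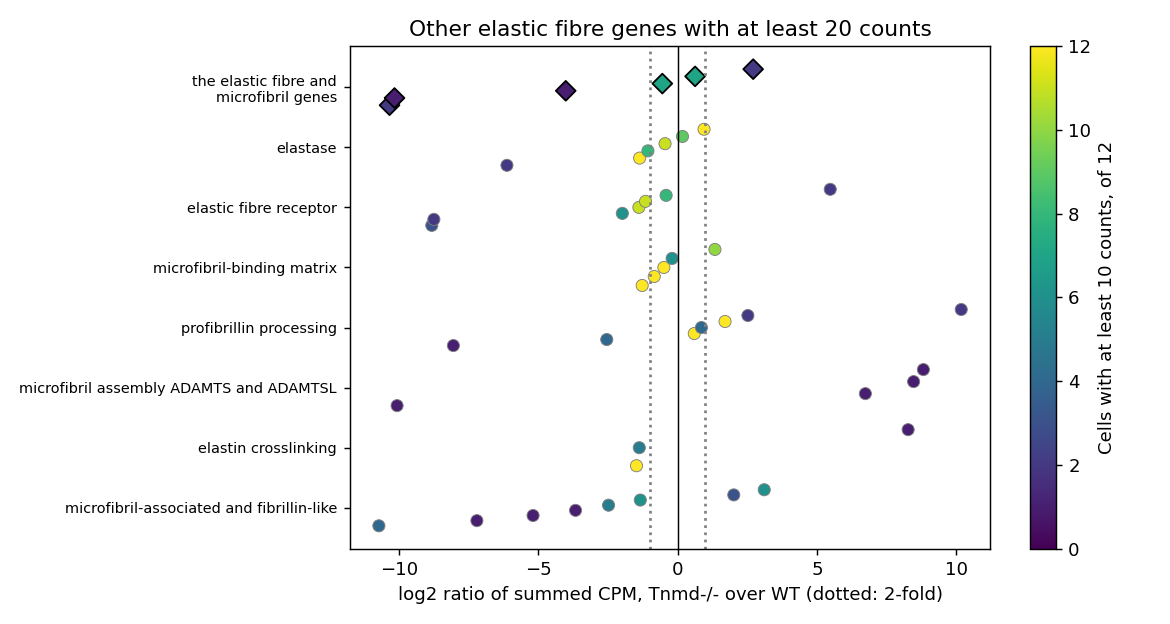
Pooled log2 ratio, Tnmd-/- over WT, of the other elastic fibre genes with at least 20 counts, arranged by role. Values formed against 0 counts are placed at their bound against 3 counts and are not marked apart from measured ratios. Points lie on both sides of 0 and extend past 10 on the log2 scale in either direction, with 11 of 40 at 1 or more and 20 of 40 at −1 or less.

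Marker genes were read beside these values. Tendon fibroblast markers had counts for 9 of 10 genes (Kera was at 0) and summed to 1684 to 87463 CPM per Tnmd-/- cell and 30395 to 176923 CPM per WT cell. The lowest sum was that of Tnmd-/- cell 3, and the highest that of WT cell 14, the cell with Mfap4 and the highest Fbln1. Dcn had the most counts of this list in every cell but Tnmd-/- cell 1, where Comp led. In WT cell 14 Dcn had 603363 counts, and Scx had 0. Of the markers of Pi16 and Dpp4 interstitial fibroblasts, a fibroblast class of the tissue around tendon in which microfibril genes are usual, 6 of 9 had counts, with Pi16, Dpp4 and Cd34 at 0 in every cell. Their sum was 95.2 to 7182 CPM per Tnmd-/- cell and 384 to 6639.8 CPM per WT cell. Pcolce2 had the most counts of this list except in Tnmd-/- cell 3 and WT cells 5 and 14. In Tnmd-/- cell 9 it had 32557 counts, and no other gene of the list passed 6. The synovial lining list summed to 623 to 33496 CPM per Tnmd-/- cell and 7640.3 to 19541 CPM per WT cell, with counts for 2 of 3 genes and Clic5 at 0. Prg4 had more counts than Htra4, the other gene with counts, in every cell. The cartilage list had 3 of 5 genes with counts (Col2a1 and Matn3 at 0) and reached 1330.5 CPM among Tnmd-/- and 253 CPM among WT cells, with the highest sums in Tnmd-/- cells 9 and 10.

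Markers of other cell types were read in the same way. Mural markers had counts for 2 of 8 genes, with Myh11, Cnn1, Rgs5, Kcnj8, Abcc9 and Des at 0, and summed to 0 to 118 CPM per Tnmd-/- cell and 0 to 641 CPM per WT cell, nearly all from Cspg4. The highest mural sum was that of WT cell 5, which also held Mfap5 and Fbn1. Endothelial markers had counts for 3 of 6 genes, with Cdh5, Tie1 and Emcn at 0. They lay at 0 to 30.3 CPM per Tnmd-/- cell and 0 to 0.167 CPM per WT cell. The highest sum was that of Tnmd-/- cell 1, the cell with most Fbn1 and Fbln2. It came from Pecam1 (160 counts) and 1 count of Cldn5. Skeletal muscle markers (2 of 5) reached 14.6 CPM among Tnmd-/- and 0.207 CPM among WT cells, immune markers (1 of 6) reached 0.871 CPM and 0, and adipocyte markers (1 of 3) reached 0 and 0.622 CPM. S100b, a gene of cartilage and nerve-associated cells, had 2352 counts in WT cell 10, the cell with the lowest member sum, 375 counts in Tnmd-/- cell 10 and 0 to 2 counts elsewhere. The part of such cells in the values of the members was not tested.

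Of the members, Fbln1 and Fbln2 alone were seen in at least 6 cells, and the genes with the most similar pattern were sought among 1834 genes seen in as many. By Spearman's rho over the 12 cells, the nearest to Fbln1 were Glg1 (0.866), Epha2 (0.808) and Ube2n (0.762), and the nearest to Fbln2 were Lyar (0.879), Trio (0.870) and Ctnna1 (0.832). These are descriptions over 12 cells that differ in depth and RNA quality, chosen as the highest of many.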

How the data were processed

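Single cells from Achilles tendons, 6 Tnmd-/- and 6 WT, were profiled by Smart-Seq2. The other assays of the study were not analysed here. The authors trimmed the reads, kept those assigned to mouse, aligned them with STAR 2.5.1b to GRCm38 and counted unique exon reads per gene with featureCounts of Subread 2.0.0. What the authors deposited were these raw counts, with the strand setting not given in the sources used here, and 0 count columns were left unmapped. Coordinates came from the GENCODE annotation of that build.

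Groups came from the labels and degradation levels were read by eye from the annotation of a heat map of the study. CPM of a genotype is the gene's count over its 6 cells per 1000000 of their total. At 95%, exact Poisson intervals were given for counts and Clopper-Pearson intervals for ratios. A sum of 0 was set to a bound of 3 counts in that genotype, and no ratio was formed with both sums at 3 counts or fewer. Such bounds have no interval and take the other sum as exact. Summaries over all genes took genes with at least 20 counts. The ratio calculation was tested on simulated pooled counts with counting error only. Differences between cells were not simulated, so that test bears on the formula and not on the ratios found here. Python 3.11.15, numpy 2.4.6, pandas 2.3.3, scipy 1.17.1 and matplotlib 3.10.9 were used, and R 4.3.3 with edgeR 4.0.16 and DESeq2 1.42.0 for alternative scalings only.

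The members and lists were chosen with earlier results of these data known. Named are all members, Tnmd and Scx, at most 4 related genes in each direction with the largest ratios among those with 10 counts in at least 2 cells, the 3 genes most like each member seen in at least 6 cells, and markers, of which 1 list is not reported here. The related genes listed as seen in all cells or absent were named after their values were seen. Alternatives changed the weighting, scaling, count minimum, added CPM, detection limit, degradation level and each cell in turn.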

Additional observations from a re-analysis of the deposited data

Results flagged for a closer look

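In 6 of 16 groups of 6 cells that were checked, 1 cell lay so far from the others that its gap to the nearest cell, as a share of the group's range, passed the limit of 0.625 (Dixon's criterion). Gene values were taken as log2 of CPM plus 1. Chance flags about 1 in 20 groups of normally distributed values, but values that are mostly 0 are flagged far more often: over the genes with at least 20 counts, 53.1% of 17303 such groups passed the same limit, so 6 of 16 is no excess over the table. For Eln, Tnmd-/- cell 7 stood apart with a gap of 1, since it held all 11 counts. For Fbn1, Tnmd-/- cell 1 stood apart at 0.981 (787 counts, next highest 1) and WT cell 5 at 0.944 (180 counts, next highest 2). For Mfap4, WT cell 14 stood apart at 0.948 (3500 counts, next highest 2). For Efemp2, WT cell 1 stood apart at 0.834 (67 counts, next highest 7). The share of mitochondrial counts in Tnmd-/- cell 3 stood apart at 0.889 on the linear scale (51.8%), and that cell held 22 counts of Fbln1, 6 of Fbln2 and 2 of Mfap5 as its only member counts. The causes of these gaps were not tested.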

How the results depend on the processing

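No paired analysis was possible because no test was made and the cell numbers only name the cells. Fbn1 reversed to −7.03 in the less degraded cells and to −6.67 without Tnmd-/- cell 1 (range with each cell left out −6.67 to 8.28). The ranges with each cell left out were −2.11 to 1.61 for Fbln1 and −0.43 to 1.39 for Fbln2, while Mfap4, Mfap5, Efemp2 and Eln kept their sign under every alternative that gave a value. The count of members at least 2-fold higher, 2, became 0 by the difference of mean log2 values, 1 in the less degraded cells and 1 without Tnmd-/- cells 3 and 7 (an alternative chosen after seeing the data), with 1 to 3 as each cell was left out (1 without Tnmd-/- cell 1 or cell 7). The count 2-fold lower, 3, ranged from 2 to 4. The median of the members, −0.90, was −1.58 with equal weights for cells, −0.19 by mean log2, −2.36 with DESeq2 size factors, −1.61 with TMM, −1.15 with totals less mitochondrial and top genes, −0.071 and −0.98 in the less and more degraded cells, −0.85 without Tnmd-/- cells 3 and 7, −0.45 with 5 CPM added, −0.55 at 100 counts and 0 with no minimum, and −1.68 to 0.26 as each cell was left out. The summed family, −0.32, was −0.88, −0.61, −1.99, −1.24, −0.35, −0.14, −0.27 and −0.22 under the first 8 of these in the same order, and −0.87 to 0.24 as each cell was left out. The median of 0 with no minimum comes from Fbn2, Fbln5 and Efemp1, which have no counts and so enter at a log2 ratio of 0. DESeq2 size factors moved the median of all genes from 0.062 to 0.16. Combinations seen, 9 Tnmd-/- and 12 WT, were 21 and 21 at 1 count, 4 and 7 in the less and 5 and 5 in the more degraded cells, with 6 to 8 and 9 to 11 as each cell was left out. The cause of these differences was not tested. By read depth alone, genes at 0 are limited to levels under 0.0855 CPM for the Tnmd-/- sum and 0.0561 CPM for the WT sum.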

Other observations

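Ly6a, the gene of the surface protein Sca-1 and a member of the interstitial fibroblast list, was high in 4 cells: Tnmd-/- cell 1 (4233 counts), Tnmd-/- cell 20 (1554 counts), WT cell 4 (10641 counts) and WT cell 5 (8218 counts). The other 8 cells held 0 to 15 counts. All 4 cells were among the 6 with 2012 or more Fbln2 counts, and they included every cell in which Fbn1 or Mfap5 was seen. WT cell 2 and Tnmd-/- cell 9, the other two cells high for Fbln2, held 0 and 3 Ly6a counts. Pi16, Dpp4 and Cd34, the defining genes of that list, were at 0 in these cells as in all others. Other genes of the list were not limited to these cells: Pcolce2 had 45243, 33331 and 39650 counts and Ly6c1 had 5257, 4872 and 1038 counts in WT cell 10, WT cell 1 and Tnmd-/- cell 10, where Fbln2 was at 50, 7 and 2 counts. Ly6a was picked from the list and this overlap was noticed after the values were seen, and it was not tested.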
